A study of Mus musculus with 16 samples.

Results

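The open chromatin around 7 genes for costimulatory and checkpoint molecules (Cd40, Cd80, Cd86, Cd274, Pdcd1lg2, Tnfsf9 and Icosl) was described in mouse macrophages. The genes were chosen by name. Overlapping peaks of the 4 deposited peak lists were merged into 37648 regions. Of these, 82 were taken because their midpoint lay no more than 100 kb from a member's transcription start site (TSS) on the GRCm38 build. Accessibility had been measured by ATAC-seq, in which a transposase cuts and tags accessible DNA. The cells were macrophages grown from bone marrow of the C57BL/6J strain. The 16 libraries of 50000 cells each formed 4 groups of 4. All cultures were grown in L-cell conditioned medium and deprived of serum for a day. On day 8 they received the DMSO vehicle (Veh) or 500 nM T0901317 (T0), a synthetic agonist of the liver X receptor (LXR), for 3 h, and these groups were harvested at that point. The LPS group had DMSO and the T0-LPS group had T0901317 for the same 3 h, and both then received 10 ng/mL lipopolysaccharide (LPS), a ligand of TLR4, for a further 2 h in that medium. Groups with and without LPS therefore also differed in culture time, and the part of each cannot be told apart.

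Macrophages present antigen to T cells, and the outcome of that contact depends on second signals. CD80 and CD86, of the B7 family, bind CD28 and CTLA-4 on T cells, and ICOSL, of the same family, binds ICOS. CD274 (PD-L1) and PDCD1LG2 (PD-L2) bind PD-1 and restrain T cells. CD40 is a receptor of the TNF receptor family through which T cells activate the macrophage, and TNFSF9, a TNF family ligand, stimulates T cells through TNFRSF9. Several of these genes are known targets of NF-kB, the family of transcription factors that TLR4 activates.

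The sequences below are those of regions that the results turn on or that hold a motif of interest, with 1 steady region for comparison. Each is the 200 bases around the midpoint of a region, read 5′ to 3′ on the plus strand of GRCm38.p6 (RefSeq), and capitals mark matches to the motifs of NF-kB, AP-1, PU.1, DR4, GAS and the nuclear receptor half-site. Names give the distance of the midpoint from the TSS, with a plus sign for downstream. The first set is a run of regions downstream of Icosl, 4 of them inside the lincRNA gene Gm47922, that all hold an NF-kB match and include the region with the largest rise in the LPS list.
Icosl +36.4 kb, chr10:78105573-78105772: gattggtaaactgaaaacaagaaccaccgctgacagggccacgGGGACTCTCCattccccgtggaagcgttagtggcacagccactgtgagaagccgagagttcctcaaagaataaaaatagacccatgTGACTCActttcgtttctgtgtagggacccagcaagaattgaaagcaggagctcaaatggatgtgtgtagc
Icosl +60.9 kb, chr10:78130058-78130257: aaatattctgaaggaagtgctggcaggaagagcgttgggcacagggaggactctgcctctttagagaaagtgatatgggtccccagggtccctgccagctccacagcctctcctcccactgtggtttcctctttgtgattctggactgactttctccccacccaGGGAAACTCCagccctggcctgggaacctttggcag
Icosl +65.9 kb, chr10:78135129-78135328: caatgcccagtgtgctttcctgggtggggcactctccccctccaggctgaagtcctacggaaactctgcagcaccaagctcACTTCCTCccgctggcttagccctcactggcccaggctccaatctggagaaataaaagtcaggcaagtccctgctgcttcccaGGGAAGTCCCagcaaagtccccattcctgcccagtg
Icosl +66.9 kb, chr10:78136055-78136254: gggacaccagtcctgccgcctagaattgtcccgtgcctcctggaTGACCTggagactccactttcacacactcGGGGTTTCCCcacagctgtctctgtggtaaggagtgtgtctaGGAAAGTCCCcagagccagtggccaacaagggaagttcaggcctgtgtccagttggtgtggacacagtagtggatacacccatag
Icosl +68.1 kb, chr10:78137257-78137456: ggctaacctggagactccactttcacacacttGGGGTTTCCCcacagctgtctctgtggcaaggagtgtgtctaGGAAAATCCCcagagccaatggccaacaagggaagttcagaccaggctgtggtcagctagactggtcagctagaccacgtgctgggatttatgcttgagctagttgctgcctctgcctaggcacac

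The second set holds a Cd80 region whose percentile was lower in both lists with T0901317 and, for comparison, the Cd80 intron region nearest to its TSS, which differed little between lists. It also holds a Cd274 intron region present with LPS only, and the one member region with a DR4 match, which was a weak peak in Veh alone. DR4 is the paired element that LXR binds, and a match here allows up to 2 mismatches to it.
Cd80 -51.7 kb, chr16:38403719-38403918: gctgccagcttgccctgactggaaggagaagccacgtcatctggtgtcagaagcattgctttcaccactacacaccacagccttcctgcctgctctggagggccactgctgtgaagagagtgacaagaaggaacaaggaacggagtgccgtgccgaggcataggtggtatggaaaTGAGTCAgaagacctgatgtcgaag
Cd80 +1.78 kb, chr16:38457244-38457443: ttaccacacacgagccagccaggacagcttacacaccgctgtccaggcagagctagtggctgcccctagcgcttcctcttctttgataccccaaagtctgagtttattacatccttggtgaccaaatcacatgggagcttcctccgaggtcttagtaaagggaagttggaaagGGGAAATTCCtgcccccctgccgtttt
Cd274 +16.1 kb, chr19:29383495-29383694: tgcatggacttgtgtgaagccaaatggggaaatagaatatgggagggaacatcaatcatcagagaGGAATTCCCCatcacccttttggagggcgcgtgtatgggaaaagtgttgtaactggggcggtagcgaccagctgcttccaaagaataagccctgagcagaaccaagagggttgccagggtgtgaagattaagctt
Pdcd1lg2 +9.24 kb, chr19:29420063-29420262: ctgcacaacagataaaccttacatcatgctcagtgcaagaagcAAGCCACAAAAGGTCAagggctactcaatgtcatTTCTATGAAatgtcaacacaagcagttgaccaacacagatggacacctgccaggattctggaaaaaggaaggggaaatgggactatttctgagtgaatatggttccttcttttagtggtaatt

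The Icosl sequences at +66.9 and +68.1 kb hold 3 NF-kB matches each, of which 2 are the same letters read on both strands, and the others hold 1. These sequences are also near-copies of each other: over a stretch of 112 bases without gaps, 107 (95.5%) are identical. How reads that fit both copies were placed was not given in the sources used here, so the values of these 2 regions are less certain than the others. The Cd80 -51.7 kb sequence holds an AP-1 match and no NF-kB match. A match is a description of letters, not a bound site.

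Each level below is a percentile, the rank of a region's highest-scoring peak among all peaks of that list on a scale from 0 to 100. The score came from the authors' peak caller and grows with the pooled depth, so scores were not compared directly between lists. In a comparison of a list with its reference, a region was called closed when the reference alone held it and opened when the reference lacked it. Peaks had been called on the 4 libraries of a group together, so no value has a replicate check, no test was possible and no p-value is given. The lists held 35551 peaks (Veh), 29839 (T0), 33181 (LPS) and 31085 (T0-LPS), and their median scores were 372, 305, 319 and 292, so the T0 list was the shortest. The part of depth in any loss from it was not tested. All 7 macrophage markers had a peak within 1 kb of their TSS in every list, and none of 5 T cell markers did. Peaks were present at 1 of 4 B cell markers (Ms4a1), 2 of 4 dendritic cell markers (Flt3 and Zbtb46) and 1 of 4 neutrophil markers (S100a8) in every list, and at 1 of 3 fibroblast markers (Col1a1) in the Veh list. The part of other cells in the results was not tested.

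Most regions around the 7 genes were open in all conditions. Of the 82 regions, 50 (61.0%) were held by all 4 lists, against 70.2% of all regions. The Veh list held 72, the T0 list 52, the LPS list 70 and the T0-LPS list 66. Another 10 (12.2%) were held by Veh alone, against 7.73% of all regions, and 6 (7.32%) by the LPS and T0-LPS lists only, against 2.69%. By annotation (GENCODE vM21), 43 midpoints lay in introns, 26 between genes, 10 in untranslated exons, 2 in coding exons and 1 in a noncoding exon. Of the 7 regions within 1 kb of a member's TSS, 4 were in all lists, compared with 17 of 22 regions within 1 kb of the TSS of another gene and 29 of 53 regions farther from any TSS.

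**Figure D1:**
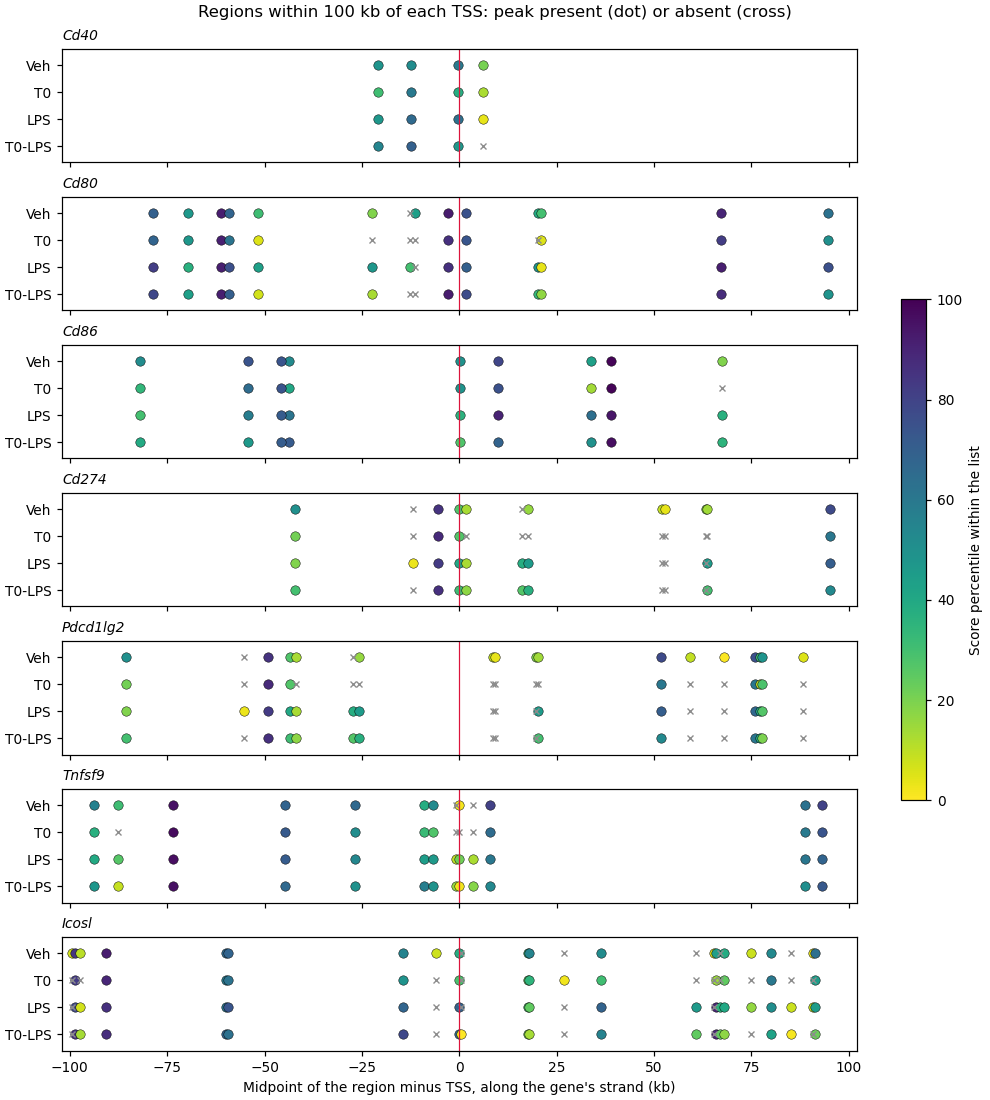
Open regions within 100 kb of each member's TSS, with distance from the TSS in kb on the x axis and the 4 lists on the y axis. A dot is a peak, coloured by its score percentile within its list, and a cross is a region that the list lacks. Crosses are most frequent in the T0 row, which holds 52 of the 82 regions.

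T0901317 alone went with fewer called regions. Of the 72 member regions in the Veh list, 21 (29.2%, Wilson 95% interval 19.9 to 40.5) were missing from the T0 list, against 18.1% of all regions in Veh. Only 1 of the 52 T0 regions (1.92%) was missing from Veh, against 0.729%. Neighbouring regions of one gene are not independent, and the interval covers counting error only. Most of the lost regions were weak before treatment. Their median Veh percentile was 9.01, compared with 59.1 for the member regions that both lists held, and the highest was 44.0. The Veh list also held 21 member regions below its 30th percentile, of which 18 (85.7%) were missing from T0, against 55.6% of all such regions. Of the 51 at or above it 3 (5.88%) were missing, against 2.33%. The count depended on the unequal length of the lists: when every list was cut to its 29839 highest-scoring peaks, 6 of 57 member regions in Veh (10.5%) were missing from T0, against 7.70% of all.

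The authors kept only peaks that overlapped enhancer marks in other macrophages, and the numbers in the peak names were taken to skip where a peak was left out. For 13 of the 21 lost regions no number was skipped between the flanking T0 peaks. The other 8 lay in 2 gaps of the T0 list with 1 number skipped in each. At least 19 of the 21 lost regions thus had no skipped number of their own. This reading of the numbers, and the part of removed peaks in the losses, were not tested. LPS lists held some of the lost regions: 11 of 21 (52.4%) were in the LPS list, against 48.2% of all regions lost with T0901317, and 9 (42.9%) in the T0-LPS list, against 35.6%. The remaining 10 were in neither.

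Among the 51 regions held by both Veh and T0, 10 (19.6%) stood at least 20 percentile points lower in T0, against 10.4% of all shared regions, and 0 stood at least 20 points higher, against 0.0762%. The median T0 minus Veh difference of the members was -7.66 points (range -30.0 to 7.89), compared with -5.58 over all regions. These 10 depend on the scale: when percentiles were taken only among the 26439 regions that all 4 lists held, 0 of 50 member regions fell or rose by 20 points, against 2.54% and 1.93% of all, and the median of the members was -2.68. All 10 were still lower in T0 than in Veh on that scale, by less than 20 points. Peaks were narrower in T0 than in Veh at 44 of 51 member regions (86.3%), against 87.6% of all.

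With LPS, gains and losses were both present. Of the 70 member regions in the LPS list, 8 (11.4%, Wilson interval 5.91 to 21.0) were missing from Veh, against 6.14% of all LPS regions. They lay near Icosl (3), Cd274 (2, both also within 100 kb of Pdcd1lg2), Tnfsf9 (2) and Cd80 (1). With lists of equal length, 12 of 65 (18.5%) were missing from Veh, against 9.30%. In the other direction, 10 of 72 Veh regions (13.9%) were missing from LPS, against 13.0%, which is near the background. Of the 62 regions in both lists, 6 (9.68%) stood at least 20 points higher with LPS, against 3.92%, and 6 at least 20 points lower, against 9.14%. The median LPS minus Veh difference was -0.613 points (range -31.1 to 45.2), compared with -2.01 over all regions, and 35 of 60 regions (58.3%) were narrower with LPS, against 67.8%. Among regions held by all lists, ranked together, 5 of 50 (10.0%) stood at least 20 points higher, against 6.14% of all, and 3 (6.00%) lower, against 6.89%.

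Most LPS-opened member regions were also in the T0-LPS list. Of the 8, 2 (25.0%, Wilson interval 7.15 to 59.1) were missing from T0-LPS, against 47.0% of all LPS-opened regions. These were the regions 12.6 kb upstream of Cd80 and 11.8 kb upstream of Cd274. With lists of equal length 4 of 12 were missing, and with scores of at least 100 alone 4 of 9 were. The share of all regions on these settings is not given here, so whether the members stood below it there is not known. Of all 70 LPS regions of the members, 5 (7.14%) were missing from T0-LPS, against 9.97%, and 1 of 66 T0-LPS regions (1.52%) was missing from LPS, against 3.37%. Of the 65 shared regions, 7 (10.8%) stood at least 20 points lower in T0-LPS than in LPS, against 4.36%, and 0 stood at least 20 points higher, against 0.929%. The 7 were 3 regions near Cd80, 3 near Icosl and 1 in Cd86. Ranked only among regions of all 4 lists, 3 of 50 (6.00%) stood at least 20 points lower, against 2.39% of all. These were Cd80 -51.7 kb, Cd80 +94.6 kb and Cd86 +10.0 kb. The median T0-LPS minus LPS difference was -4.53 points (range -36.7 to 13.0), compared with -1.76 over all regions, and 40 of 63 regions (63.5%) were narrower, against 63.9%.

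The comparison of T0-LPS with T0, in which all cells had T0901317, held the LPS gains again, beside regions in Veh that the short T0 list lacked. Of 66 T0-LPS regions, 16 (24.2%) were missing from T0, against 11.7%, and 2 of 52 T0 regions (3.85%) were missing from T0-LPS, against 7.70%. Of 50 shared regions 10 (20.0%) stood at least 20 points higher with LPS, against 7.76%, and 3 (6.00%) lower, against 5.62%. The median T0-LPS minus T0 difference was 1.19 points (range -22.3 to 75.1), compared with 0.597 over all regions. These comparisons share lists with one another and are not independent.

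**Figure D2:**
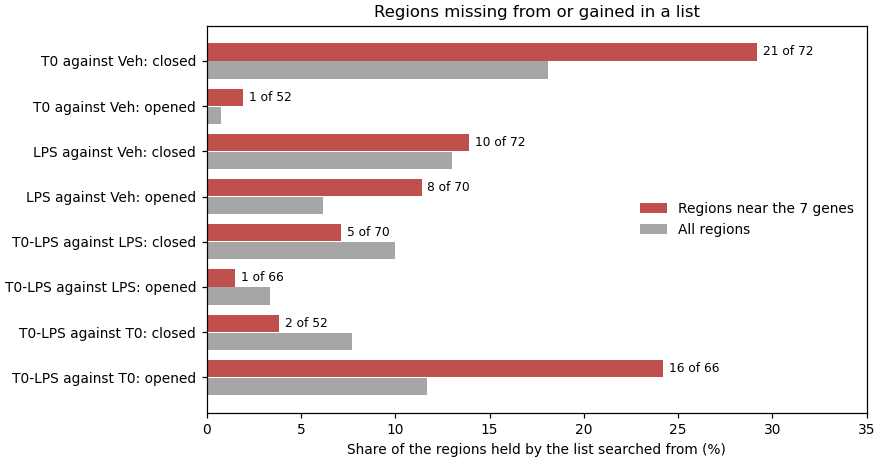
Share of regions, in percent, that were closed (missing from the first-named list) or opened (held by the first-named list only) in each comparison, for member regions and for all regions. The base is the regions of the second-named list for closed and of the first-named list for opened, and bars start at 0. Closed regions in T0 (29.2% of members, 18.1% of all) and opened regions in LPS (11.4% and 6.14%) stood above the background, while closed regions in LPS (13.9% and 13.0%) stood near it. The Wilson interval of the 11.4%, 5.91 to 21.0, included its background. With lists of equal length the shares were 10.5% and 7.70% for closed in T0, and 18.5% and 9.30% for opened in LPS.

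**Figure D3:**
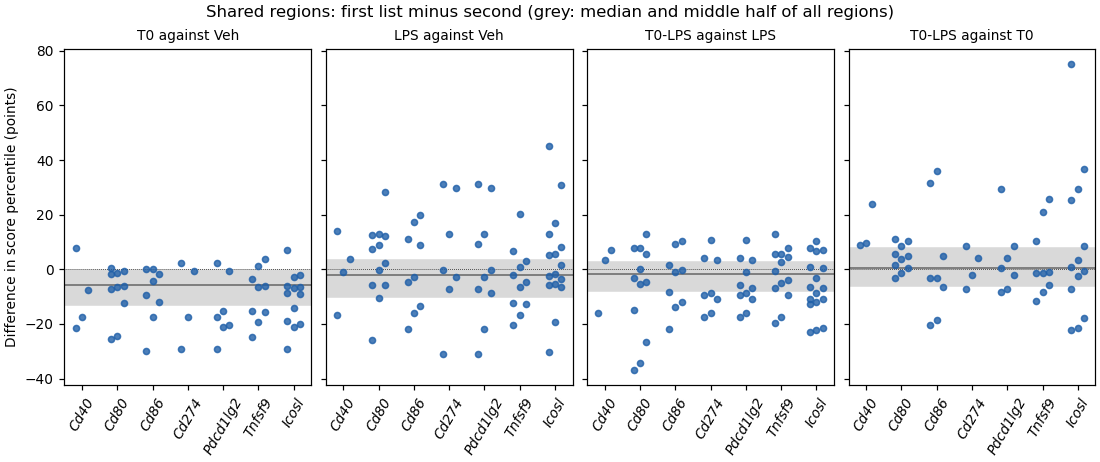
Difference in score percentile (y axis, in points, first-named list minus second) for member regions held by both lists of each comparison. Points are regions grouped by gene, and the grey line and band give the median and interquartile range of all regions. The member medians were -7.66, -0.613, -4.53 and 1.19 points, and the Icosl region at +65.9 kb was the highest point in both comparisons of LPS with no LPS.

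Among the B7 ligands of CD28, Cd80 had the more varied surroundings. Cd80 (chr16:38455561-38496335, plus strand) had 14 regions, 10 of them in all lists. Its nearest region, at +1.78 kb in an intron (chr16:38457161-38457525), stood at percentiles 75.2 (Veh), 73.7 (T0), 69.6 (LPS) and 77.3 (T0-LPS), and differed by under 10 points between any 2 lists. Some distal regions differed most. At -51.7 kb, in an intron of Pla1a, a phospholipase gene, the percentiles were 31.0, 5.42, 43.6 and 6.84 in the same order, lower in both lists with T0901317 than in both without it. Among regions of all 4 lists the T0 minus Veh difference was -9.35 points and the T0-LPS minus LPS difference was -28.5 points. At -22.3 kb, 89 bp from the TSS of Pla1a, they were 18.9 in Veh, 47.2 in LPS and 13.0 in T0-LPS, with no T0 peak. At +94.6 kb, in a coding exon of Poglut1 and 111 bp from the Poglut1 TSS, they were 62.5, 50.2, 75.4 and 48.8. At all 3, LPS stood highest and T0-LPS stood more than 20 points below it.

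Other Cd80 regions were missing from 1 or more lists or lower in them. The intron region at +20.3 kb stood at 39.4 in Veh, 48.4 in LPS and 33.5 in T0-LPS and was missing from T0, where no peak number was skipped. Its neighbour at +21.0 kb stood at 29.8, 5.42, 3.76 and 16.6, lower than Veh in all 3 treated lists. The region at -11.4 kb, in an untranslated exon of Adprh, was in Veh alone at 44.0, the highest Veh percentile of any member region missing from T0, and that at -12.6 kb was in LPS alone at 29.8. Peak numbers were skipped in the gaps around both sites in the lists without them, 1 in the T0 gap that also held -22.3 kb, so a removed peak is possible at one of these sites in T0.

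Cd86 (chr16:36603869-36666081, minus strand) had 9 regions, of which 8 were in all lists, and it had no LPS-opened or LPS-closed region. Its strongest region, singled out after its values were seen, at +39.0 kb in its own intron, stood at 99.1, 99.2, 94.5 and 96.1, near the top of each list. The region at its TSS (+103 bp, chr16:36665742-36666215) stood at 49.6 (Veh), 48.1 (T0), 36.0 (LPS) and 27.7 (T0-LPS), lower in both lists with LPS. The intron region at +33.8 kb went the other way, at 43.7, 13.7, 63.7 and 49.8: lowest with T0901317 alone and highest with LPS. At +10.0 kb, also in the gene, the values were 79.1, 75.0, 90.3 and 68.5, highest in LPS and lowest in T0-LPS.

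The distal Cd86 regions were mixed. At -43.6 kb, in an intron of Ildr1, the region with NF-kB, AP-1 and GAS matches stood at 52.5, 40.4, 61.5 and 71.8, highest in T0-LPS. At -81.9 kb the values were 51.7, 34.2, 29.8 and 39.1, highest in Veh. The weak region at +67.6 kb was the one Cd86 region missing from T0, with 18.9 in Veh, 36.4 in LPS and 35.5 in T0-LPS.

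Icosl (chr10:78069302-78083913, plus strand) had the most regions of the 7 genes, 24, and 0.588% of the 21938 protein-coding genes had at least as many. At its TSS (+16 bp, chr10:78069093-78069544) the percentiles were 37.8 (Veh), 28.8 (T0), 68.7 (LPS) and 65.5 (T0-LPS), so both lists with LPS stood well above both without it. Among the regions nearest to the 7 TSSs it had the largest LPS minus Veh difference. The region at +65.9 kb (chr10:78134917-78135540) moved further, at 44.4, 15.1, 89.6 and 90.2, and its peak was 309, 245, 597 and 624 bp wide. The percentiles with and without T0901317 were within 1 point of each other once LPS was present.

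The neighbours of that region lay in Gm47922 as well (chr10:78121433-78138097). At +60.9 and +66.9 kb, regions were absent from Veh and T0 with no peak number skipped, and stood at 45.8 and 35.9 in LPS and at 24.4 and 24.0 in T0-LPS. At +68.1 kb the region was present throughout, at 38.5, 24.5, 40.1 and 17.1, and at +65.3 kb a weak region was in Veh alone at 6.14. The regions at +66.9 and +68.1 kb are the near-copies, whose values are less certain. Within one gene body both LPS-opened regions thus had lower percentiles in T0-LPS than in LPS and the strongest region did not. All 4 of these regions that were held by the LPS list hold the NF-kB motif.

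**Figure D4:**
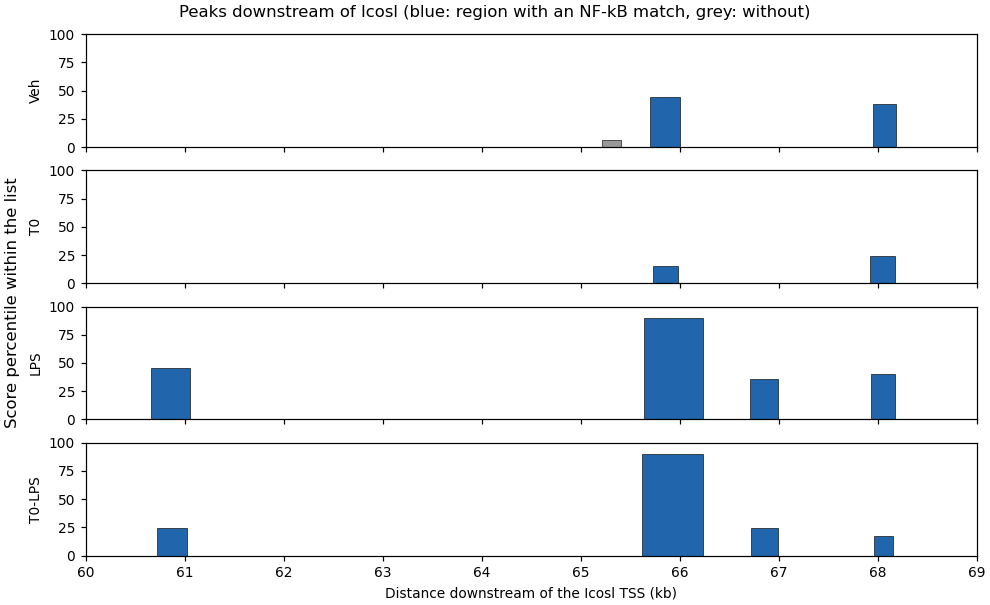
Extent of the peaks between 60 and 69 kb downstream of the Icosl TSS in each of the 4 lists, with distance in kb on the x axis. Each bar spans a peak and its height is the score percentile within the list, blue for regions with an NF-kB match and grey for those without. Peaks at +60.9 and +66.9 kb appear in the LPS and T0-LPS rows and in neither other row.

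Between Icosl and Gm47922, the region at +36.4 kb, with NF-kB and AP-1 matches, stood at 51.7, 30.6, 68.7 and 56.0. At -14.5 kb, in an intron of Dnmt3l and 527 bp from the Dnmt3l TSS, the values were 55.1, 48.8, 67.9 and 78.2. Both were higher with LPS than without it. At +18.0 kb, with 54.8, 34.9, 24.6 and 13.5, and at +91.4 kb, with 63.8, 44.9, 44.7 and 22.6, Veh was highest and T0-LPS lowest.

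The remaining Icosl regions that a list lacked were weak. At +85.1 kb a region was in LPS at 8.06 and T0-LPS at 1.36, and at +74.9 and +90.8 kb regions were in Veh (8.07 and 3.30) and LPS (16.2 and 8.62) but in neither list with T0901317, with no peak number skipped. At -97.3 kb the percentiles were 10.3 in Veh, 6.79 in LPS and 13.5 in T0-LPS. The regions at -99.4 kb, 14 bp from the TSS of Trpm2, and at -5.95 kb were in Veh alone at 7.02 and 7.53. That at +26.9 kb was in T0 alone at 2.00 and that at +526 bp in T0-LPS alone at 0.262. All of these weak regions stood below the 20th percentile of their lists. At +26.9 kb 1 peak number was skipped in each list without it, and at +526 bp 1 was skipped in the LPS list.

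Tnfsf9 (chr17:57105325-57107757, plus strand) had 13 regions, 9 of them in all lists, and it lost none with LPS. The region at its TSS (+35 bp, chr17:57105154-57105566) was weak, at 1.61 in Veh, absent from T0, 21.7 in LPS and 2.20 in T0-LPS, so only the LPS list ranked it above its lowest peaks. On either side of it, at -718 bp (chr17:57104453-57104762) and +3.48 kb (chr17:57108696-57108924), regions were in both LPS lists and in neither other list. They stood at 10.1 and 12.5 in LPS and at 15.9 and 18.0 in T0-LPS, and no peak number was skipped in Veh or T0. Weak regions just upstream of the TSS and past the far end of the gene were thus gained in both lists with LPS.

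Other Tnfsf9 regions differed between lists without being gained or lost with LPS, among them 2 in introns of the lincRNA gene Gm11110. At -6.82 kb the percentiles were 52.6, 27.6, 46.1 and 48.6, lowest in T0, and at -8.96 kb 38.1, 32.1, 44.8 and 57.8, highest in T0-LPS. At +7.77 kb the values were 80.8, 65.1, 60.4 and 53.4, highest in Veh. The region at -87.7 kb was missing from T0 and stood at 31.0, 26.2 and 8.77 in Veh, LPS and T0-LPS.

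Cd40 (chr2:165055627-165072948, plus strand) had the fewest regions, 4, of which 3 were in all lists. At -217 bp (chr2:165055008-165055812) the percentiles were 59.1 (Veh), 37.7 (T0), 62.8 (LPS) and 46.8 (T0-LPS), lower in both lists with T0901317 than in both without it. At -20.8 kb, in an untranslated exon of Ncoa5 and 4 bp from the Ncoa5 TSS, they were 48.1, 30.6, 47.2 and 54.4. The weak intron region at +6.19 kb stood at 20.4, 12.8 and 3.88 in Veh, T0 and LPS and was missing from T0-LPS, where 1 peak number was skipped. Cd40 had no region gained with LPS and none lost with T0901317 alone.

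**Figure D5:**
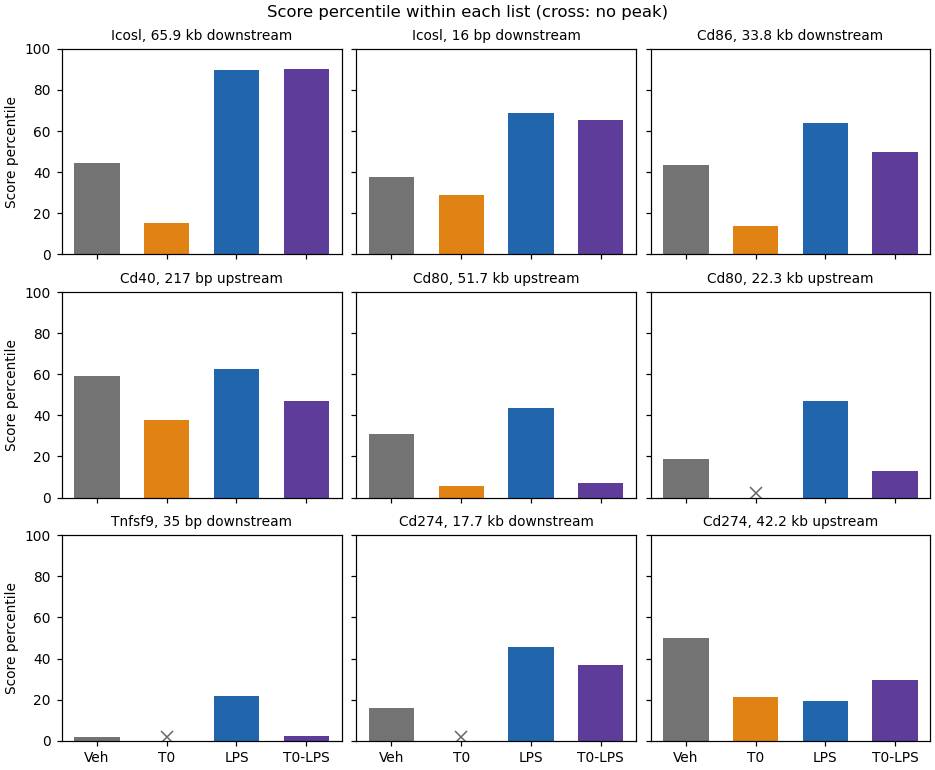
Score percentile within each list (y axis, 0 to 100) in Veh, T0, LPS and T0-LPS for 9 member regions that the text describes. Bars start at 0 and a cross marks a list that lacks the region. Icosl +65.9 kb and Icosl +16 bp are high in both LPS lists, and Cd80 -51.7 kb is low in both lists with T0901317.

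The checkpoint ligand genes Cd274 (chr19:29367455-29388095) and Pdcd1lg2 (chr19:29410919-29471161), both on the plus strand, have TSSs 43.5 kb apart and shared 12 of their 18 distinct regions, so they are described together. This locus lost the most regions with T0901317. Of 16 regions in Veh, 9 were missing from T0, against 18.1% of all regions in Veh, and 7 were in all lists. All 9 lay within 100 kb of the Pdcd1lg2 TSS, a number reached by 0.0638% of protein-coding genes. Of these, 6 lay within 100 kb of the Cd274 TSS, a number reached by 1.18%. Each of the 9 was weak, at Veh percentile 18.9 or below. Of all Veh regions below the 30th percentile, 55.6% were missing from T0, so the 18.1% is not a like background. The gene ranks take no account of peak strength and are not given for lists of equal length. At the Cd274 TSS (-67 bp, chr19:29367239-29367537) the percentiles were 27.5 (Veh), 27.0 (T0), 40.5 (LPS) and 31.0 (T0-LPS), highest in LPS.

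Inside Cd274, 2 regions were absent or weak in Veh and stood higher with LPS. At +16.1 kb (chr19:29383441-29383747), with an NF-kB match, a region stood at 37.7 in LPS and 26.7 in T0-LPS and was absent from Veh and T0, with a peak number skipped in the gap around it in both. At +17.7 kb (chr19:29384989-29385307), with an AP-1 match, the values were 15.8 in Veh, 45.6 in LPS and 36.9 in T0-LPS, with no T0 peak. The region at +1.63 kb was weak in the 3 lists that held it, at 13.2, 13.1 and 17.1, and missing from T0. Upstream, -11.8 kb was in LPS alone at 3.06. The region at -42.2 kb, in a coding exon of Insl6 and 55 bp from the Insl6 TSS, stood at 50.2, 21.1, 19.1 and 29.7, highest in Veh.

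In the Pdcd1lg2 gene, the region at +20.3 kb from its TSS stood at 14.2 in Veh, 45.6 in LPS and 29.7 in T0-LPS and was absent from T0. The region nearest to the Pdcd1lg2 TSS, at +8.69 kb, was in Veh alone at 9.01, so no list held a peak within 1 kb of that TSS. A further 5 regions at +9.24, +19.8, +59.2, +67.9 and +88.3 kb were also in Veh alone, at 3.68, 18.9, 9.01, 0.525 and 5.13. From the Cd274 TSS region to the last shared region in Pdcd1lg2, the T0 list skipped a single peak number, in a gap that held 6 of the 9 lost regions, and at the other 3 it skipped none. The LPS and T0-LPS lists each skipped 1 number in the gap around +8.69, +9.24 and +19.8 kb. They skipped none at +59.2, +67.9 and +88.3 kb. At +77.3 kb the percentiles were 30.6, 9.39, 39.9 and 38.8 and at +77.7 kb, close beside it, 48.4, 28.2, 26.6 and 19.8, so the 2 neighbours differed in whether LPS stood above or below Veh.

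Against all protein-coding genes, the number of regions and losses of the 7 genes ranged widely. At least as many LPS-opened regions were held by 2.07% of genes for Icosl (3), by 6.52% for Cd274, Pdcd1lg2 and Tnfsf9 (2 each) and by 23.9% for Cd80 (1), while Cd40 and Cd86 had none. At least as many regions lost with T0901317 were found at 1.18% of genes for Icosl (6), 14.7% for Cd80 (3), 28.2% for Tnfsf9 (2) and 51.2% for Cd86 (1). A gene with more regions has more to lose: the median gene had 5 regions, fewer than Icosl, Pdcd1lg2, Cd80, Tnfsf9, Cd274 and Cd86 had. Icosl lost 6 of its 19 regions in Veh, against 18.1% of all regions in Veh, and each of the 6 stood at Veh percentile 10.3 or below. The losses of such weak regions depended on list length, and these ranks are not given for lists of equal length.

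Motifs were searched on both strands in the 200 bases around each midpoint. The NF-kB motif was in 9 of 82 member regions (11.0%), against 4.31% of all regions and 18.1% of all LPS-opened regions, and 5 of the 9 lay near Icosl. All 9 were held by LPS and T0-LPS, 3 of them were LPS-opened, and of the 6 in both Veh and LPS 5 stood higher in LPS. The same counts over all regions with the motif are not given here, so whether the members differed from those is not known. Both near-copies downstream of Icosl are among the 9, so these counts include regions whose values are less certain. The AP-1 motif TGAGTCA was in 16 (19.5%), against 13.4%, the PU.1 motif GAGGAAGT in 8 (9.76%), against 8.55%, and the GAS motif TTCNNNGAA in 5 (6.10%), against 5.51%. The nuclear receptor half-site AGGTCA was in 15 (18.3%), against 11.9%, and of the 13 of these in Veh 4 (30.8%) were missing from T0, near the 29.2% of all member regions in Veh. The DR4 motif, with up to 2 mismatches, was in 1 member region (1.22%), against 1.94%, and the ISRE, the interferon response element, in 2 (2.44%), against 3.79%.

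Lists of related genes gave the surroundings for comparison. Of 14 other genes for T cell ligands of antigen-presenting cells, 10 had an LPS-opened region, against 23.9% of protein-coding genes. This is not a like comparison, since most of these 14 genes had more regions than the median gene (5), and some shared an LPS-opened region. In all, 17 of their 135 regions in LPS (12.6%) were LPS-opened, against 6.14% of all regions, and 27 of 138 Veh regions (19.6%) were missing from T0, near the 18.1% of all regions. The highest LPS-opened region of that list lay 97.8 kb from the TSS of Lgals9, the gene for galectin-9, at percentile 58.3 in LPS. Next was a region shared by Cd70 and Tnfsf14, 82.0 and 37.6 kb from their TSSs, at 40.6. Of 10 antigen presentation genes 9 had an LPS-opened region, 16 of 105 in all (15.2%), and 26 of 100 Veh regions (26.0%) were missing from T0. The highest LPS-opened regions were those of Tap1 (45.3), H2-D1 (45.1) and Ciita (44.5), which lay 34.5, 44.0 and 18.3 kb from the TSS. The 6 genes for the members' partners on T cells had 1 LPS-opened region of 26 (3.85%), and 10 of 32 Veh regions (31.2%) were missing from T0. That LPS-opened region, at 9.29, was shared by Cd28 and Ctla4 and lay 86.9 and 83.3 kb from their TSSs. By the same counts the members had 11.4% and 29.2%. The LPS-opened regions near Tnfsf9 also lay within 100 kb of the TSS of Tnfsf14. They were therefore counted among the members and among the other ligands, and these shares are not separate.

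The gene whose 4 summed percentiles, each scaled to 1 per region, came closest to those of a member was A030005L19Rik for Cd40 (distance 0.093), 2310011J03Rik for Cd80 (0.274) and Srgn for Cd86 (0.110). The closest gene was Evi2 for Cd274 (0.184), 0610030E20Rik for Pdcd1lg2 (0.305), Gm10563 for Tnfsf9 (0.117) and Notch2 for Icosl (0.408). These distances were taken over the 4 lists and describe likeness of level only.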

How the data were processed

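ATAC-seq libraries of the 4 groups of bone marrow-derived macrophages, 4 per group and 16 in all, were described from the deposited peak lists. Per the labels, the authors used cutadapt, Bowtie2, SAMtools, MACS2 and bedtools on mm10. They called peaks at a q threshold of 0.001 on the 4 libraries of a group together and kept those at H3K27ac or H3K4me2 enhancers of other macrophages. The deposited files held a position, a numbered name and a score for each peak. The authors' score is that of the peak caller, its scale was not given in the sources used here, and it grows with depth. Depth per library is unknown.

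Peaks overlapping by at least 1 bp were merged, and regions were assigned to a gene by midpoint, within 100 kb of the 5′ end of the gene in GENCODE vM21. All peaks on 21 chromosomes ended within the GRCm38 lengths (0 beyond an end). Ties had their mean rank. Counts over members were set beside the same counts over all regions, with no test, since each group had 1 list. Motifs were searched in GRCm38.p6 sequence. The RefSeq promoter table held 4 of the 7 members and was not used. Named regions were the nearest to each TSS, those missing from a list and those with a difference of at least 20 points, and 1 Cd86 region was added after its values were seen. Other genes named were up to 3 per list with the highest-scoring LPS-opened region, and the most similar gene per member. The members and lists were chosen with earlier results of these data known. Scripts were tested on simulated data. Python 3.11.15, numpy 2.4.6, scipy 1.17.1 and matplotlib 3.10.9 were used. Alternatives changed the window, the TSS, the lowest score, the list length, the overlap, the numbering rule, the percentile scale and the size of a shift.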

Additional observations from a re-analysis of the deposited data

How the results depend on the processing

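Of 119 alternative values of 19 counts, 79 stayed within 1.5 times and 40 did not. A window of 50 kb gave 44 regions, 25 of them in all lists, with 11 missing from T0, 5 missing from LPS, 5 opened with LPS, 3 missing from T0-LPS against LPS and 10 opened in T0-LPS against T0. In that window 6 regions stood at least 20 points lower in T0 and 2 lower in T0-LPS than in LPS. With every list cut to the length of the shortest, 6 regions were missing from T0, 4 missing from LPS and 2 opened in T0-LPS against LPS, and 4 of 12 LPS-opened regions were absent from T0-LPS. On those lists 0 regions stood 20 points lower in T0, 4 lower in T0-LPS than in LPS and 5 lower in T0-LPS than in T0. Leaving out every region in a gap with a skipped peak number, although regions can share 1 number, 13 were missing from T0, 6 from LPS and 3 from T0-LPS against LPS, 0 were opened in T0 or in T0-LPS against LPS, 0 were missing from T0-LPS against T0, and 1 LPS-opened region was absent from T0-LPS. Keeping scores of at least 100 gave 0 opened in T0, 1 missing from T0-LPS against T0, and 4 of 9 LPS-opened regions absent from T0-LPS. Single peaks with a reciprocal overlap of 50% gave 3 opened in T0, 15 opened with LPS, 3 opened in T0-LPS against LPS, and 5 of 15 LPS-opened peaks absent from T0-LPS. With percentiles among regions of all 4 lists, 0 stood 20 points lower in T0, 3 lower in LPS, 3 lower in T0-LPS than in LPS and 5 lower in T0-LPS than in T0. A difference of 10 points gave 22 lower in T0, 14 lower and 16 higher in LPS, 20 lower and 5 higher in T0-LPS than in LPS, and 6 lower in T0-LPS than in T0. Cutting the lists to equal length lowered the losses in T0 by its own construction, and the causes of the other changes were not tested. No paired analysis was possible because the libraries of a group had been pooled into 1 list before peak calling, and for the same reason no library could be left out. The pooled lists limit every value here: depth and accessibility cannot be told apart for weak regions, and no spread between cultures could be given.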
